A study of Mus musculus with 70 samples.

Results

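The genes Saa3, Lcn2, Hp, Cp, Ltf and Pigr, which encode acute phase and secreted defence proteins, were followed in mouse lung after inhalation of crystalline silica. They were taken by gene symbol from the table of gene counts and are 6 of its 24420 genes, and all 6 were found. The samples were 70 lung RNA libraries, 1 per mouse, in 12 groups. The groups were silica-exposed knockout, air-exposed knockout, silica-exposed wildtype and air-exposed wildtype mice, each killed 1 day, 3 months or 9 months after exposure, with 6 mice in 10 groups and 5 in both wildtype groups of 9 months. Knockout mice were homozygous for a disrupted Slc26a4, the gene for the anion exchanger pendrin, and are written Pds-/- in the labels; wildtype mice were Pds+/+. All mice were males of the strain 129S-Slc26a4tm1Erg/AjgJ, spelled 129S-Slc26Atm1Egr/AjgJ elsewhere in the labels, bred from heterozygotes and about 3 months old when exposed. The allele is inherited through the germline, so the gene was disrupted in every tissue and not in lung alone. Silica mice breathed Min-U-Sil5, a fine quartz dust, at 15 mg/m3 for 6 hours a day on 4 days in a whole-body chamber, and the other mice breathed air. Mice killed later were also older, so time after exposure cannot be told apart from age or from any batch that follows time.

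Acute phase proteins are blood and tissue proteins whose synthesis is switched on by inflammatory cytokines such as interleukin 1, tumour necrosis factor and interleukin 6. Most come from the liver, but lung epithelium and macrophages also make some of them, and secreted defence proteins of the airway lining bind microbes, metals or antibodies at the mucosal surface. The transcription factors NF-kB, C/EBP and STAT are the textbook carriers of these signals to their promoters. Saa3 encodes serum amyloid A 3, the family member made outside the liver in mice. Lcn2 encodes lipocalin 2, which captures the iron carriers of bacteria. Pigr encodes the receptor that carries polymeric IgA and IgM across epithelium into secretions. Cp encodes ceruloplasmin, a copper-binding ferroxidase, and Hp encodes haptoglobin, which binds free haemoglobin. Ltf encodes lactoferrin, an iron-binding protein of gland secretions and neutrophil granules.

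In the GENCODE M21 annotation of GRCm38 (mm10), all 6 are protein-coding genes. Saa3 (gene 20210 in the counts) lies at chr7:46711998-46715700 on the minus strand, Lcn2 (16819) at chr2:32384633-32388252 on the minus strand and Hp (15439) at chr8:109575128-109579172 on the minus strand. Cp (12870) lies at chr3:19957054-20009145, Ltf (17002) at chr9:111019271-111042767 and Pigr (18703) at chr1:130826684-130852249, all on the plus strand. Cp overlaps Hps3 on the opposite strand. The strand setting of the counting is not given in the sources used here, so reads of Cp and Hps3 may not be separated and the Cp values are uncertain to that extent. Saa3 has close relatives in Saa1 and Saa2, which reached at most 7.19 and 2.35 normalised CPM in any library.

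Saa3, Lcn2 and Pigr had silica and air ranges that did not overlap in either genotype at 1 day or 3 months, and the 250 bases before their RefSeq start sites are shown for that reason. The sequences are from RefSeq on GRCm38.p6, read 5′ to 3′ along the gene, and cover chr7:46715677-46715926 (minus strand) for Saa3, chr2:32387740-32387989 (minus strand) for Lcn2 and chr1:130826434-130826683 (plus strand) for Pigr. The RefSeq starts of Saa3 and Lcn2 differ from the GENCODE ones given above, so the Lcn2 window lies wholly and the Saa3 window partly within the GENCODE gene. Capitals mark matches, on either strand, to TTGCNNAA for C/EBP, TTCNNNGAA for STAT, GGG and CC with any 5 bases between them for NF-kB, and TATAAA for the TATA box.
Saa3: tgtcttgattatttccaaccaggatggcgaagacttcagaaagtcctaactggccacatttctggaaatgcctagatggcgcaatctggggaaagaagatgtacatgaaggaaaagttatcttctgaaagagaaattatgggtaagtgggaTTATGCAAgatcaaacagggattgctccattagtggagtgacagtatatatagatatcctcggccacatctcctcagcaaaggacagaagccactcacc
Lcn2: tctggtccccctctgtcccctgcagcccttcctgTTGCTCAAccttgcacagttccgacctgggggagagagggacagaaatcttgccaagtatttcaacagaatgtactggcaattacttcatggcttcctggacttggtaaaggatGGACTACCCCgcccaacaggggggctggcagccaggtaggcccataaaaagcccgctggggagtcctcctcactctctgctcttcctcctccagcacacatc
Pigr: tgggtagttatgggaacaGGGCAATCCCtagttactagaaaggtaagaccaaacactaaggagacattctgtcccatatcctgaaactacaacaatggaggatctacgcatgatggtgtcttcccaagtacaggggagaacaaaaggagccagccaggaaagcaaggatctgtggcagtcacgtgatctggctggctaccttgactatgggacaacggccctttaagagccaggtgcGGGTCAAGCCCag

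Saa3 held 1 C/EBP match, TTATGCAA, that begins 99 bases before the start, and no NF-kB match in this window. Lcn2 held a C/EBP match, TTGCTCAA, 216 bases before the start and an NF-kB match, GGACTACCCC, 102 bases before it. Pigr held NF-kB matches and no C/EBP match: GGGCAATCCC, 232 bases before the start, reads as a match on both strands, and GGGTCAAGCC and GGTCAAGCCC, 13 and 12 bases before it, overlap each other. Of all 32851 windows of the same length, 9.56% held the C/EBP letters, 7.02% the STAT letters, 45.8% the NF-kB letters and 12.4% the TATA letters, so an NF-kB match is common by these letters. Among RefSeq promoters, 5 of the 6 members were found, in 6 windows, and Hp was not matched. Ltf held a C/EBP match 75 bases before its start and 4 overlapping NF-kB matches that begin 65 to 60 bases before it. A window for a second Cp start held a C/EBP match 70 bases and an NF-kB match 146 bases before it, and 2 overlapping TATA matches. A first Cp window held no match at all, and no window of a member held a STAT match. A match describes letters and not a bound site, and a missing match says nothing of the factor.

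Libraries held 802478 to 5596316 counts, so 1 count equalled 0.183 to 1.24 counts per 1e6 counts (CPM). Normalised CPM here are further scaled by TMM factors over the 70 libraries. Slc26a4 itself, the check of the genotype, was at 6.01 to 20.5 normalised CPM in silica-exposed and 0.982 to 3.24 in air-exposed knockout lungs at 1 day, against 24.8 to 69.6 in silica-exposed and 4.22 to 12.6 in air-exposed wildtype lungs. In 1 air-exposed knockout mouse of 9 months, replicate 4, it was at 51.7, within the range of silica-exposed wildtype lungs of 1 day. The label of this mouse is thus in doubt, so that "knockout" is for it the label alone. At 1 day Slc26a4 was also higher after silica in knockout lungs, so its level by itself does not settle the genotype. In replicate 5 of that group Slc26a4 was at 16.8, against 1.32 to 3.71 in the other 4. These libraries and replicate 5 of the air-exposed wildtype mice of 9 months stood apart from the rest of their groups, with Chil3, a chitinase-like gene of alveolar macrophages, at 6583, 2997 and 8011 normalised CPM against 673 to 1083 in the other 8 air mice of 9 months. Leaving out these 3 mice was a choice made after seeing the data, and values of 9 months without them stand beside those with all mice. Among silica-exposed knockout mice 2 also stood apart by their counts, replicate 3 of 1 day and replicate 3 of 3 months. Lung markers were present in every library: the alveolar type 2 marker Sftpc was at 4115 to 6770, the alveolar type 1 marker Ager at 842 to 1780 and the club cell marker Scgb1a1 at 3901 to 18110 normalised CPM over the 70 libraries. In a piece of lung, fewer cells of a type and less RNA per cell cannot be told apart. The labels give 1 library per mouse.

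Per kilobase of exon, Hp was the most abundant member in air-exposed lungs and Saa3 and Ltf were the least. The length used was the union of all GENCODE exons of a gene. It was 2.61 kb for Saa3, 2.62 for Lcn2, 1.61 for Hp, 9.57 for Cp, 3.45 for Ltf and 4.03 for Pigr. A gene whose main transcript is shorter than this union reads too low, so the order between genes depends on the annotation. At 1 day Hp averaged 267.7 ± 19.1 normalised CPM per kb in air-exposed knockout lungs and 279.9 ± 9.83 in air-exposed wildtype lungs (SD, 6 mice each). Cp followed at 29.6 ± 3.40 and 28.4 ± 3.02, Lcn2 at 16.9 ± 4.29 and 15.4 ± 2.86 and Pigr at 5.19 ± 1.39 and 5.56 ± 0.635, each knockout before wildtype. Ltf stood at 0.359 ± 0.247 and 0.499 ± 0.327, and Saa3 at 0.328 ± 0.237 and 0.628 ± 0.342. After silica at 1 day Saa3 averaged 21.4 ± 8.25 in knockout and 16.0 ± 5.20 in wildtype lungs, beside the per-kilobase level of Pigr in the same mice, 22.4 ± 3.22 and 24.0 ± 3.54. When the 12 groups were ordered by mean, neighbouring groups overlapped in their ranges for every member, with 1 exception: air-exposed wildtype mice of 3 months lay below silica-exposed knockout mice of 1 day for Pigr.

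**Figure D1:**
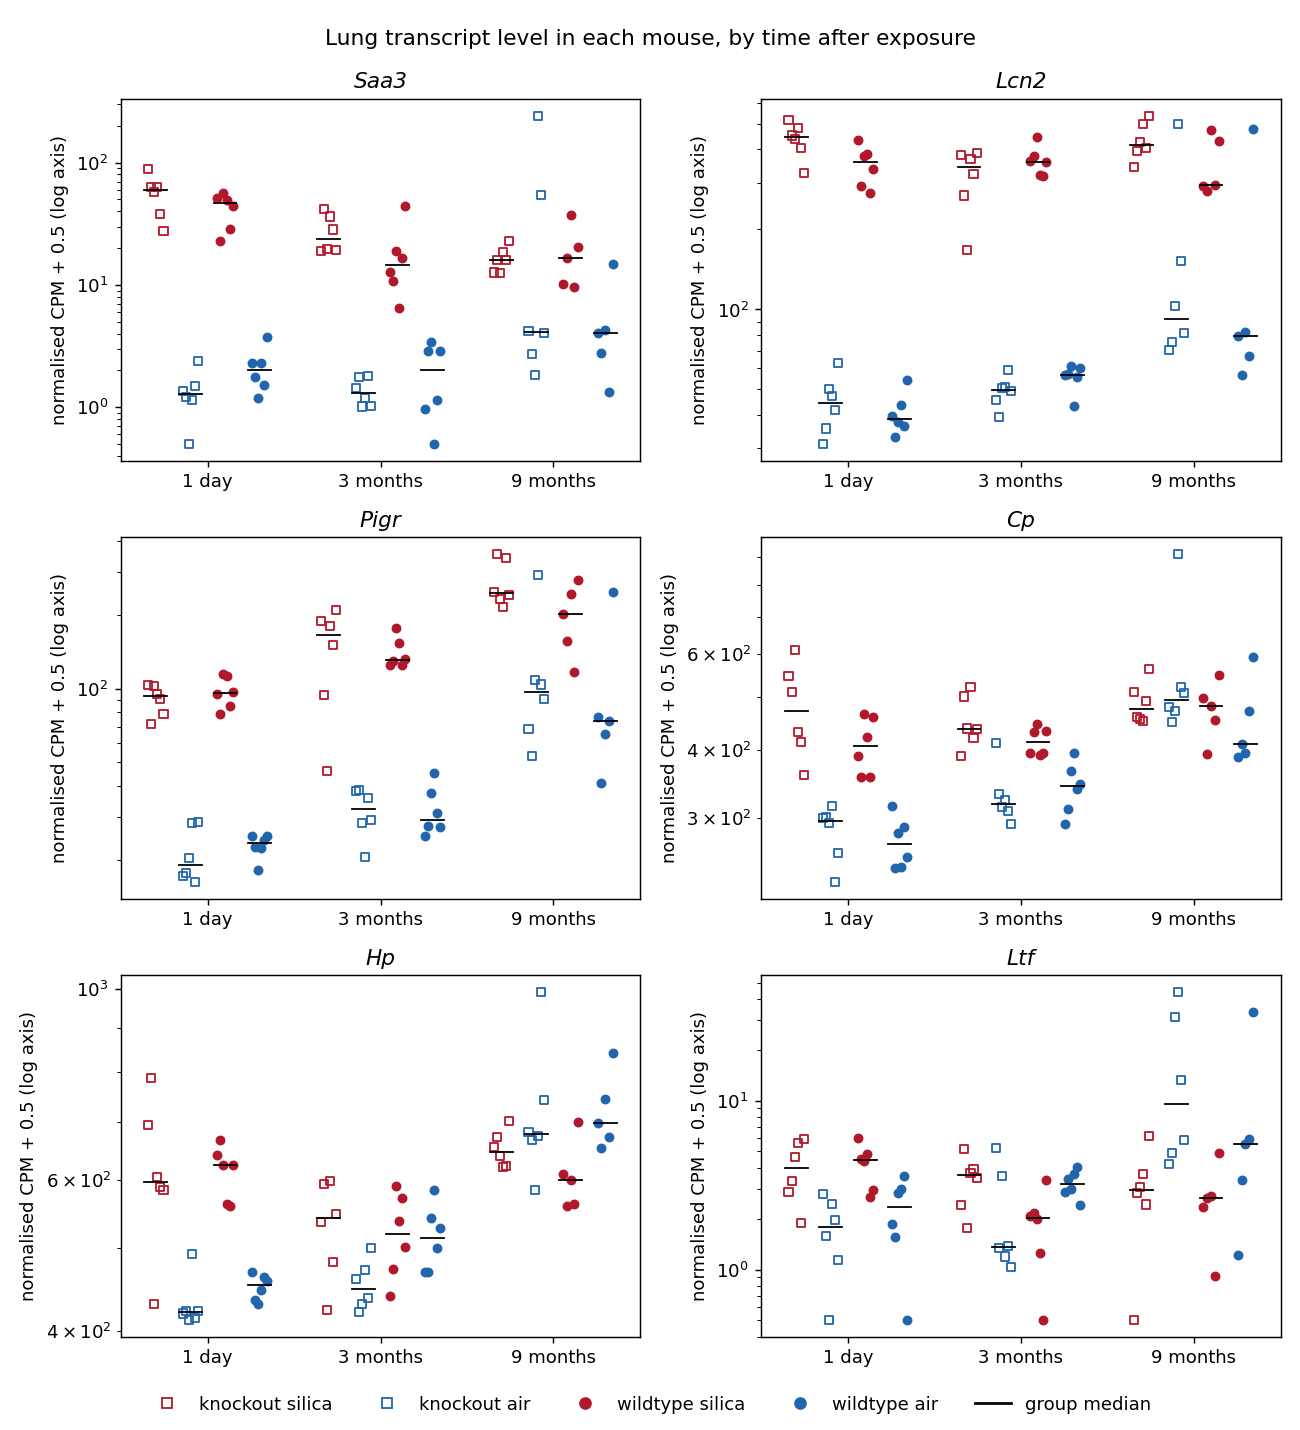
Level of each member in every mouse (points, log axis) by time after exposure, plotted as normalised CPM + 0.5, with silica left of air and knockout left of wildtype and a bar at the group median. Saa3, Lcn2 and Pigr lie above air in every silica mouse at 1 day and 3 months, and at 9 months knockout air replicate 4 and wildtype air replicate 5 reach silica levels of Lcn2 and Pigr.

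Saa3 rose most. At 1 day it ran from 27.1 to 88.2 normalised CPM (median 59.7) in silica-exposed knockout lungs, against 0 to 1.91 (median 0.793) in air-exposed knockout lungs. In silica-exposed wildtype lungs it ran from 22.4 to 56.3 (median 46.0), against 0.697 to 3.23 (median 1.53) in air-exposed wildtype lungs. No silica mouse overlapped an air mouse in either genotype. The air levels are near the floor of detection, with 11 counts summed over the 6 knockout and 29 over the 6 wildtype libraries. The log2 fold change, silica over air, was 5.88 in knockout (SE 0.39, adjusted p = 7.29e-13) and 4.80 in wildtype mice (SE 0.33, adjusted p = 1.11e-12; edgeR quasi-likelihood test, adjusted over all tested genes). These equal 58.9-fold (95% interval 34.0 to 102) and 27.8-fold (17.6 to 44.0).

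At 3 months Saa3 still stood above air in both genotypes. It ran from 18.6 to 41.1 (median 23.5) in silica-exposed knockout lungs, against 0.516 to 1.32 (median 0.818) in air-exposed knockout lungs. In wildtype lungs it ran from 6.02 to 44.1 (median 14.2) after silica, against 0 to 2.93 (median 1.51) in air. Again no silica mouse overlapped an air mouse. The log2 fold changes were 4.74 in knockout (SE 0.50, adjusted p = 7.91e-08) and 3.41 in wildtype mice (SE 0.43, adjusted p = 2.64e-06).

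Lcn2 rose with the smallest adjusted p of the 6 members, in both genotypes and at both times. Silica-exposed knockout lungs of 1 day held 324.6 to 516.2 normalised CPM (median 443.2), against 30.7 to 62.3 (median 44.0) in air-exposed knockout lungs. Silica-exposed wildtype lungs held 272.8 to 434.9 (median 357.8), against 32.7 to 54.0 (median 38.3) in air-exposed wildtype lungs. The lowest silica mouse was thus far above the highest air mouse of either genotype. Lcn2 rose by a log2 fold change of 3.35 in knockout (SE 0.15, adjusted p = 8.79e-18) and 3.14 in wildtype mice (SE 0.14, adjusted p = 1.42e-17), or 10.2-fold and 8.82-fold. At 3 months it was at 166.9 to 388 (median 344.3) in silica-exposed knockout lungs, against 38.9 to 58.9 (median 49.4) in air, and at 317.2 to 443.9 (median 359.1) in silica-exposed wildtype lungs, against 42.7 to 60.6 (median 56.4) in air. The rise was 2.70 in knockout (SE 0.15, adjusted p = 2.44e-14) and 2.72 in wildtype mice (SE 0.14, adjusted p = 5.65e-15). The lowest silica value of 3 months, 166.9, came from replicate 3 of the knockout group, which stands apart by its counts and also had the lowest Pigr, 45.6, and the highest Chil3 of its group, 1409.

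Pigr rose at both times. At 1 day it was at 71.2 to 103.4 normalised CPM (median 92.7) in silica-exposed knockout lungs, against 15.7 to 27.9 (median 18.5) in air-exposed knockout lungs. Wildtype lungs held 78.7 to 114.5 (median 95.6) after silica, against 17.6 to 24.4 (median 22.9) in air. At 3 months the values were 45.6 to 208.9 (median 164.9) in silica-exposed knockout lungs, against 20.1 to 38.1 (median 31.9) in air. In silica-exposed wildtype lungs they were 124.3 to 177.2 (median 130.6), against 24.7 to 44.8 (median 28.7) in air. All silica mice of both times were above all air mice of the same genotype and time. The log2 fold changes were 2.16 (SE 0.14, adjusted p = 3.33e-13) in knockout and 2.13 (SE 0.12, adjusted p = 2.03e-14) in wildtype mice at 1 day, and 2.20 (SE 0.23, adjusted p = 9.51e-08) and 2.18 (SE 0.23, adjusted p = 7.22e-08) at 3 months in the same order.

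Cp and Hp, the abundant members, moved little by comparison. Cp averaged 477.7 ± 92.9 normalised CPM in silica-exposed and 283.1 ± 32.5 in air-exposed knockout lungs at 1 day, and 408 ± 47.9 in silica-exposed and 271.5 ± 28.9 in air-exposed wildtype lungs (SD, 6 mice each). It rose by 0.75 on the log2 scale in knockout (SE 0.10, adjusted p = 9.74e-06) and 0.59 in wildtype mice (SE 0.10, adjusted p = 0.000312). The silica and air ranges of Cp did not overlap in either genotype. At 3 months the rise was 0.44 in knockout (SE 0.08, adjusted p = 0.000591) and 0.29 in wildtype mice (SE 0.08, adjusted p = 0.0408), and the ranges overlapped. The wildtype call at 3 months was lost without any 1 of 7 single libraries: replicates 2, 3 and 6 of the silica group and replicates 1, 2, 5 and 6 of the air group.

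Hp averaged 613.9 ± 119.7 normalised CPM in silica-exposed and 429.9 ± 30.6 in air-exposed knockout lungs at 1 day, and 612.7 ± 43.3 in silica-exposed and 449.6 ± 15.8 in air-exposed wildtype lungs. The log2 fold changes were 0.51 (SE 0.09, adjusted p = 0.000405) and 0.45 (SE 0.09, adjusted p = 0.00184), knockout first. In knockout lungs replicate 3 after silica, at 430.1, fell within the air range of 411.4 to 491.8, and in wildtype lungs the ranges did not overlap. At 3 months Hp was not called in either genotype, with 0.22 in knockout (95% interval 0.06 to 0.39, adjusted p = 0.109) and 0.01 in wildtype mice (95% interval -0.15 to 0.17, adjusted p = 0.990). Without replicate 3 of the silica-exposed knockout mice of 3 months the knockout value was called, as it was by voom with quality weights, at 0.25.

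Ltf was too low to be tested at 1 day and 3 months. Silica-exposed knockout lungs of 1 day held 1.38 to 5.41 normalised CPM from 42 counts in all, against 0 to 2.31 from 18 counts in air-exposed knockout lungs. Wildtype lungs held 2.20 to 5.52 from 48 counts after silica, against 0 to 3.08 from 37 counts in air. At 3 months the ranges were 1.27 to 4.70 in silica-exposed and 0.531 to 4.71 in air-exposed knockout lungs, and 0 to 2.90 in silica-exposed and 1.91 to 3.57 in air-exposed wildtype lungs. The groups overlapped throughout. Without the low-count filter the log2 fold changes at 1 day were 1.23 in knockout (adjusted p = 0.250) and 1.01 in wildtype mice (adjusted p = 0.200).

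Counted together, at 1 day 5 of the 5 tested members were called higher after silica in knockout mice, where 1.7% of the 12558 tested genes were, and 5 of 5 in wildtype mice, where 1.95% were. At 3 months 4 of 5 were called higher in each genotype, against 3.02% of 12647 genes in knockout and 2.24% in wildtype mice. Silica and air ranges did not overlap for 4 of the 5 in knockout mice at 1 day (1.04% of all tested genes were higher without overlap) and for all 5 in wildtype mice (2.05%). At 3 months this held for Saa3, Lcn2 and Pigr in both genotypes, where 1.45% of genes in knockout and 1.78% in wildtype mice were higher without overlap. The median log2 fold change of all tested genes was 0.00 in knockout mice at both times, and 0.00 at 1 day and -0.01 at 3 months in wildtype mice.

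**Figure D2:**
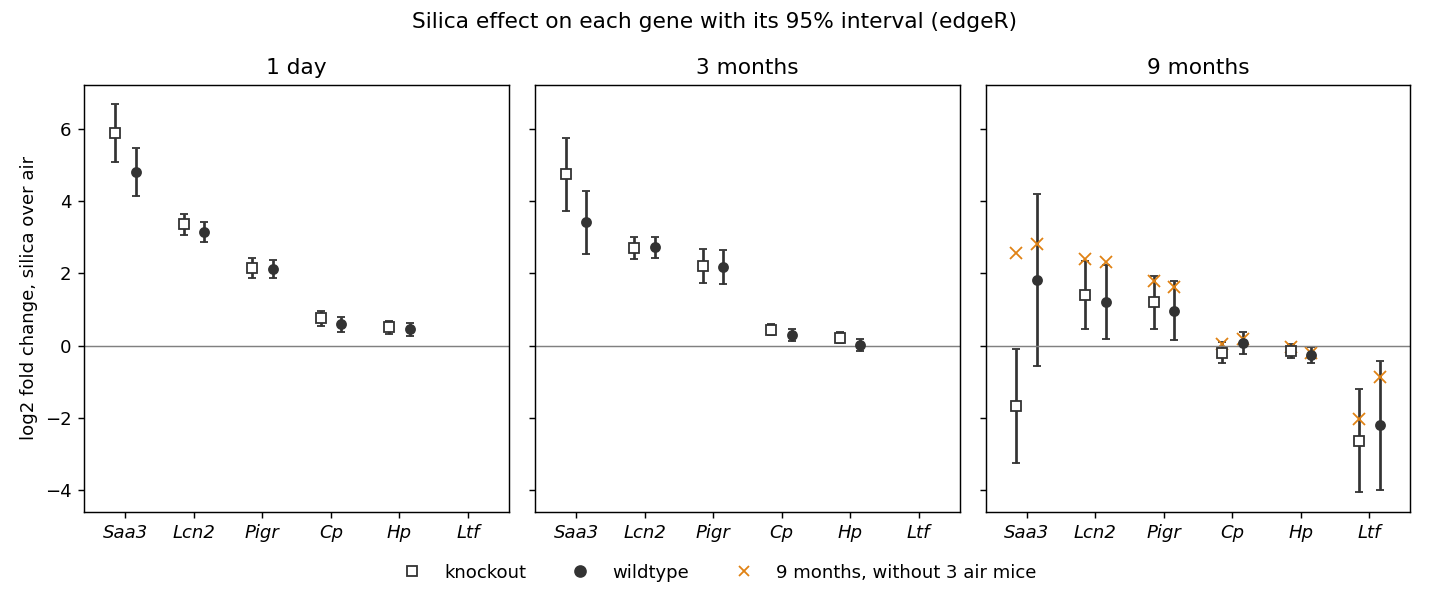
Log2 fold change, silica over air, of each member by time in knockout (left of each pair) and wildtype mice, with 95% intervals from edgeR; crosses at 9 months give the value without 3 air mice, and Ltf has values at 9 months only. The fold changes fall in the order Saa3, Lcn2, Pigr, Cp, Hp at 1 day, and at 9 months the intervals widen.

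At 9 months none of the 6 members was called by edgeR in either genotype with all mice in, where 0.179% of 12826 genes were called in knockout and 0.0234% in wildtype mice. By an unadjusted p under 0.05, 4 of the 6 passed in knockout mice, where 10.5% of genes did, and 4 of 6 in wildtype mice, where 6.82% did. Their directions were mixed: Lcn2 and Pigr were higher after silica in both genotypes, Saa3 and Ltf lower in knockout and Hp and Ltf lower in wildtype mice. DESeq2 called none, and voom with quality weights called 2 in each. Saa3 was at 12.0 to 22.5 normalised CPM (median 15.5) in silica-exposed knockout lungs, against 1.33 to 241.4 (median 3.63) in air-exposed knockout lungs. Silica-exposed wildtype lungs held 9.61, 16.3, 36.5, 9.08 and 19.8, against 3.57, 2.30, 3.79, 0.830 and 14.5 in air-exposed wildtype lungs. Each silica mouse was above each air mouse apart from the 3 mice that stand apart: knockout air replicates 4 and 5, at 241.4 and 54.0, exceeded every silica mouse of their genotype, and wildtype air replicate 5, at 14.5, lay among the silica values.

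In Lcn2 and Pigr at 9 months knockout air replicate 4 and wildtype air replicate 5 reached the silica values, while knockout air replicate 5 did not. Lcn2 was at 343.8 to 535.1 (median 415.1) in silica-exposed knockout lungs, against 69.7 to 497.6 (median 91.9) in air, where replicates 4 and 5 gave 497.6 and 151.2. In wildtype lungs Lcn2 was at 290.5, 278.5, 473.4, 293.9 and 429.4 after silica, against 79.2, 56.2, 82.1, 66.4 and 477.1 in air. The last value, of replicate 5, is the only air value of that group above 82.1. Pigr was at 214.5 to 355 (median 244.2) in silica-exposed knockout lungs, against 52.5 to 290.4 (median 96.7) in air, and at 201.8, 156.6, 242.5, 116.8 and 276.2 in silica-exposed wildtype lungs, against 76.3, 40.8, 64.8, 73.1 and 247.7 in air. The highest air value in each of these 4 sets came from knockout replicate 4 or wildtype replicate 5.

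With all mice the log2 fold changes at 9 months were 1.41 for Lcn2 (95% interval 0.47 to 2.35, adjusted p = 0.245) and 1.20 for Pigr (0.47 to 1.92, adjusted p = 0.182) in knockout mice, and 1.20 (0.17 to 2.23, adjusted p = 0.654) and 0.97 (0.16 to 1.78, adjusted p = 0.650) in wildtype mice. Saa3 was at -1.67 in knockout (-3.25 to -0.10, adjusted p = 0.445) and 1.82 in wildtype mice (-0.55 to 4.19, adjusted p = 0.799). Without the 3 air mice Saa3, Lcn2 and Pigr were called higher in both genotypes, at 2.55, 2.41 and 1.79 in knockout mice (adjusted p of 0.000323, 5.93e-12 and 1.88e-06), where 1.7% of 12839 genes were called, and at 2.80, 2.31 and 1.63 in wildtype mice (adjusted p of 0.000143, 5.49e-11 and 1.99e-05), where 1.64% were. Saa3 in knockout mice thus changed sign with the 3 mice, and voom with quality weights also gave it a positive value, 1.88. The air groups then held 4 mice each, at 2.70 ± 1.13 for knockout and 2.62 ± 1.36 for wildtype Saa3. The mice left out hold the highest air values of Saa3, Lcn2 and Pigr in each genotype, and no silica mouse was left out. A higher silica effect without them is thus in part fixed by that choice.

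Cp and Hp showed no call at 9 months with or without the 3 mice. With all mice Cp was at -0.19 in knockout (95% interval -0.48 to 0.10) and 0.07 in wildtype mice (-0.24 to 0.39), and Hp at -0.15 (-0.35 to 0.05) and -0.25 (-0.48 to -0.03). Without the 3 mice they were at 0.04 and 0.19 for Cp and -0.03 and -0.19 for Hp, knockout first.

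Ltf ran the other way at 9 months in its group means, with silica and air ranges that overlapped. It was at 0 to 5.64 normalised CPM (median 2.46) in silica-exposed knockout lungs, against 3.71, 4.41, 30.7, 43.6, 12.7 and 5.33 in air-exposed knockout lungs. In silica-exposed wildtype lungs it was at 1.85, 2.17, 2.22, 0.413 and 4.39, against 0.713, 2.87, 5.05, 5.40 and 33.1 in air-exposed wildtype lungs. The high air values were those of the 3 mice that stand apart and of knockout replicate 3, which had ordinary Chil3, 1083. The log2 fold change was -2.62 in knockout (SE 0.70, adjusted p = 0.127) and -2.20 in wildtype mice (SE 0.87, adjusted p = 0.637). Without the 3 mice it was called lower in knockout mice, at -2.02 (adjusted p = 0.0406), and was -0.86 in wildtype mice (adjusted p = 0.675). Of the 4 air-exposed knockout mice then kept, only replicate 3, at 30.7, lay above the silica range. The others were at 3.71, 4.41 and 5.33, so the call leans on that mouse and was not tested without it. The same knockout replicate 3 had 34.2 normalised CPM of Bpifb1, an airway secretory protein, against 62.0 and 19.1 in replicates 4 and 5 and 4.82 to 10.1 in the other 3 air-exposed knockout mice.

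**Figure D3:**
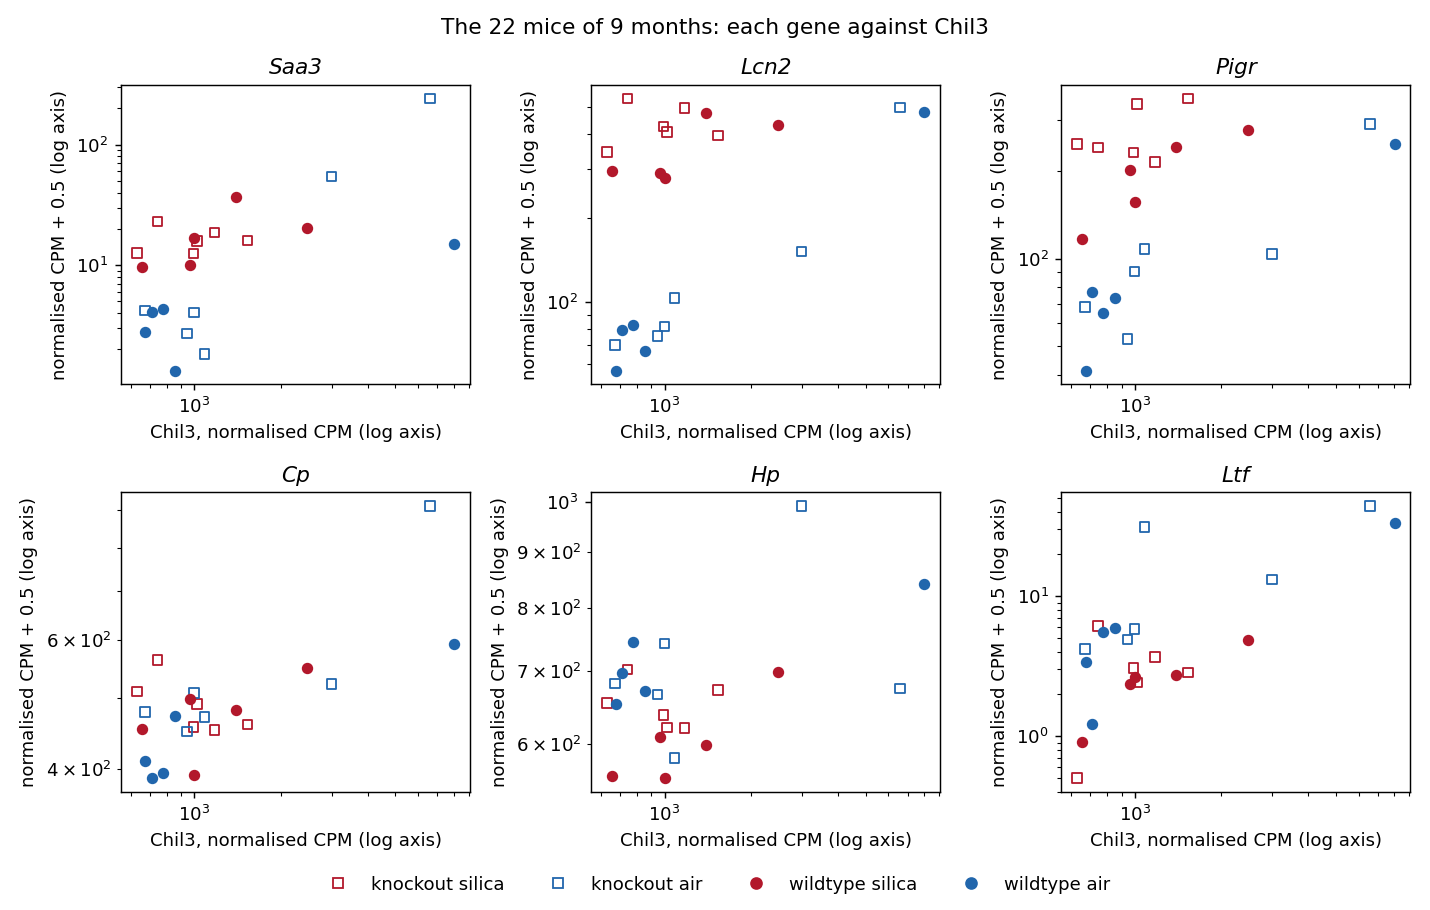
Normalised CPM + 0.5 of each member (vertical, log axis) against normalised CPM of Chil3 (horizontal, log axis) in the 22 mice of 9 months, silica and air mice of each genotype marked apart. The 3 air mice with Chil3 of 2997 to 8011 carry the highest air values of Saa3 and Lcn2 in their groups, while the other 8 air mice lie between 673 and 1083.

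The same 3 mice differed in cell markers, whose part in the values above was not tested. The summed level of 12 alveolar macrophage markers was 15280, 10710 and 18510 normalised CPM in knockout replicates 4 and 5 and wildtype replicate 5, against 4242 to 5974 in the other 8 air mice. That sum includes Chil3, the gene that marked these mice out, so its height is in part fixed by that choice. The summed alveolar type 1 markers were 3892, 5461 and 3940 in them, against 5922 to 7438. Neutrophil markers summed to 353.8, 196.2 and 112.9 in the same mice, against 119.6 to 420.1 in the others, the highest of them in knockout replicate 6 with Saa3 at 3.55.

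In the models of single times the knockout and wildtype mice did not differ in any member past the threshold; in the model of all 70 libraries Saa3 was called in air at 9 months with all mice in, at 3.32 (adjusted p = 0.0122). No member was called by edgeR in the models of single times in 6 comparisons of knockout with wildtype, in silica or in air at each time, against 0.00796%, 0.174% and 0% of all tested genes called in silica by time and 0.0478%, 0.142% and 0.0156% in air. DESeq2 and voom with quality weights called none either. At an unadjusted p under 0.05, 3, 0 and 0 members passed in silica at the 3 times, against 7.64%, 10.3% and 3.99% of genes, and 0, 1 and 2 in air, against 10%, 10.8% and 10%. Those in air were Hp at 3 months, by -0.18, and Saa3 and Cp at 9 months, by 3.33 and 0.30. The 9-month values rest on mice that stand apart: without replicate 4 of the air-exposed knockout mice, whose label is in doubt, Saa3 was at 1.35 and Cp at 0.11, and without the 3 mice Saa3 was at 0.09, Cp at 0.19 and Ltf at 1.51. No member was then called (0.0312% of genes were), and Cp and Ltf had an unadjusted p under 0.05, as did 9.32% of genes. The 3 in silica at 1 day were higher in knockout mice: Lcn2 by 0.31 (95% interval 0.07 to 0.55, adjusted p = 0.538), Saa3 by 0.42 (0.02 to 0.82, adjusted p = 0.642) and Cp by 0.22 (0.02 to 0.43, adjusted p = 0.626). Lcn2 averaged 435.2 ± 66.5 normalised CPM in silica-exposed knockout and 349.6 ± 61.3 in silica-exposed wildtype lungs, and Saa3 55.8 ± 21.5 and 41.7 ± 13.5 (SD, 6 mice each). The ranges of the 2 genotypes overlapped for every member, time and exposure.

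Whether the silica response itself differed with genotype was tested as an interaction, the knockout silica effect minus the wildtype one. No gene of any kind was called by edgeR in it at any of the times (0% of tested genes), edgeR's default fit called 1 gene at 3 months, which is no member, DESeq2 and voom called no member, and 0, 0 and 1 members had an unadjusted p under 0.05, against 5.7%, 7.67% and 7.02% of genes. At 1 day the difference was 1.08 for Saa3 (95% interval -0.49 to 2.66), 0.21 for Lcn2 (-0.19 to 0.62), 0.03 for Pigr (-0.35 to 0.41), 0.16 for Cp (-0.13 to 0.46) and 0.07 for Hp (-0.19 to 0.32). At 3 months it was 1.33 for Saa3 (-0.44 to 3.10), -0.02 for Lcn2 (-0.44 to 0.40), 0.03 for Pigr (-0.65 to 0.71), 0.16 for Cp (-0.07 to 0.39) and 0.21 for Hp (-0.02 to 0.44). The intervals are narrow for Cp and Hp and wide for Saa3, where they reach a log2 difference of 2.66 at 1 day. At 9 months Saa3 was at -3.49 (-6.32 to -0.67, adjusted p = 0.599), and at -0.25 without the 3 air mice. The other members were at 0.21 for Lcn2, 0.10 for Hp, -0.26 for Cp, -0.42 for Ltf and 0.22 for Pigr with all mice. Without the 3 they were at 0.10, 0.16, -0.15, -1.16 and 0.15 in the same order, with no member called (0.00779% of genes were) and none at an unadjusted p under 0.05 (8.15%).

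**Figure D4:**
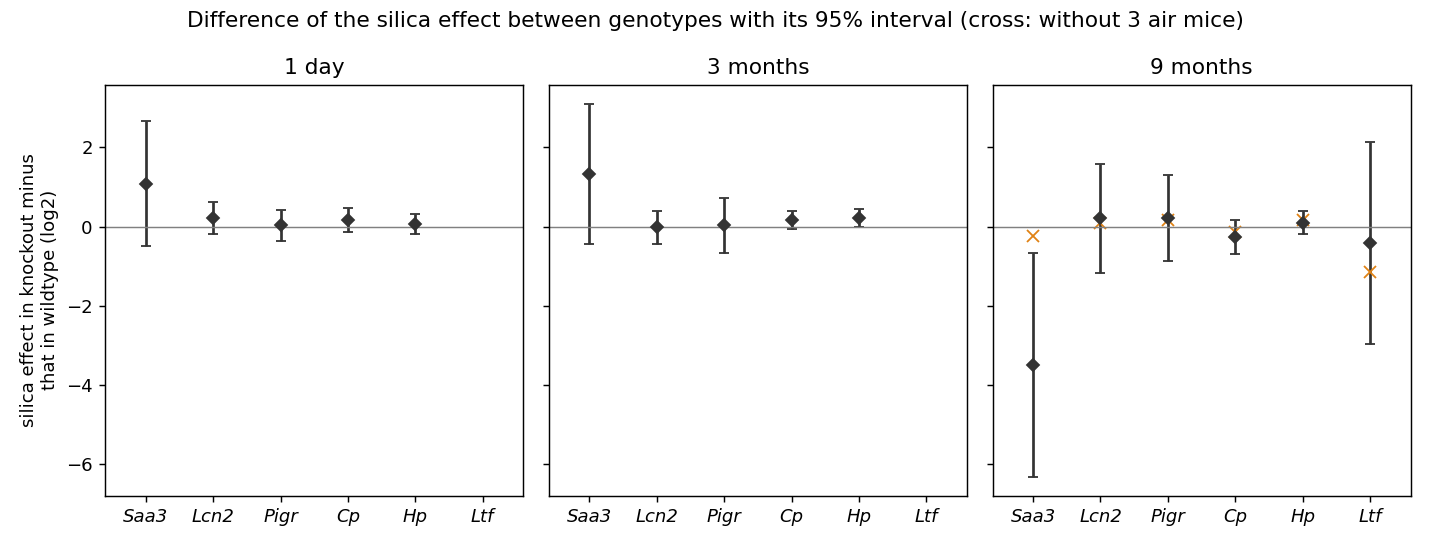
Silica effect in knockout minus that in wildtype mice (log2) for each member by time, with 95% intervals from edgeR; crosses give the value at 9 months without 3 air mice. Every interval at 1 day and 3 months spans 0, those of Saa3 are the widest, and at 9 months Saa3 lies at -3.49 with all mice and at -0.25 without the 3.

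In air, the members were higher at 9 months than at 3 months. All 6 were called higher in air-exposed knockout mice, where 9.8% of 13252 genes were, and 5 of 6, all but Saa3, in air-exposed wildtype mice, where 6.34% were. Hp averaged 722.9 ± 140.8 normalised CPM at 9 months and 452.6 ± 29.5 at 3 months in knockout lungs, and 721.4 ± 75.3 and 513.9 ± 44.8 in wildtype lungs. Its log2 differences were 0.68 (SE 0.09, adjusted p = 2.47e-07) and 0.49 (SE 0.10, adjusted p = 0.000219), and no 9-month mouse overlapped a 3-month mouse in either genotype. Such a gap held in knockout air for 5 members, all but Ltf, where 2.53% of genes were higher without overlap, and in wildtype air for Hp alone, where 2.78% were. For Saa3 the gap lay at the floor of detection. Its lowest 9-month value was 1.33 and its highest 3-month value 1.32 normalised CPM, from 3 counts each. Pigr averaged 118.6 ± 86.8 at 9 months and 31.3 ± 7.01 at 3 months in knockout lungs, and 100.5 ± 83.4 and 31.8 ± 7.78 in wildtype lungs, with log2 differences of 1.90 (adjusted p = 4.29e-06) and 1.70 (adjusted p = 9.84e-05). Both held without the 3 mice, at 0.57 and 0.44 for Hp and 1.32 and 1.04 for Pigr.

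Among the other members, calls were lost without those mice for Saa3 in knockout air and for Lcn2, Cp and Ltf in wildtype air. In knockout air Lcn2 was 1.74 higher at 9 months, Cp 0.75, Ltf 3.16 and Saa3 5.73 on the log2 scale, and without the 3 mice the values were 0.76, 0.54, 2.57 and 1.52, of which Saa3 was then not called (adjusted p = 0.332). Among the 4 knockout air mice of 9 months then kept, Ltf ran from 3.71 to 30.7 normalised CPM, highest in replicate 3. In wildtype air Lcn2, Cp and Ltf were 1.47, 0.40 and 1.8 higher, and 0.36, 0.29 and 0.44 without replicate 5, none of which was then called. The counts without the 3 mice were 5 members in knockout and 2 in wildtype air, where 7.46% and 5.85% of 13305 genes were called.

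After silica few members were called between times. Between 3 months and 1 day edgeR called none in any of the 4 groups, against 0.868% of all genes in knockout silica, 1.08% in wildtype silica, 0% in knockout air and 0.0302% in wildtype air, and DESeq2 called none. At an unadjusted p under 0.05, 3 members passed in knockout silica and 3 in wildtype silica, against 13.8% and 12.7% of genes, 0 in knockout air (5.6%) and 2 in wildtype air (6.19%). Voom with quality weights called 1, 2, 0 and 1 members in the same order. Saa3 averaged 26.8 ± 9.79 at 3 months and 55.8 ± 21.5 at 1 day in silica-exposed knockout lungs, and 17.9 ± 13.6 and 41.7 ± 13.5 in silica-exposed wildtype lungs, differences of -1.12 (95% interval -2.10 to -0.14, adjusted p = 0.277) and -1.23 (-2.29 to -0.17, adjusted p = 0.296). Without the 3 air mice of 9 months, which share the model, both were called lower (adjusted p of 0.00417 and 0.00383, where 2.04% and 1.98% of genes were called). Between 9 months and 3 months 2 members were called in silica-exposed knockout mice, where 3.23% of genes were called higher, and none in silica-exposed wildtype mice (1.56% in either direction), where 1 had an unadjusted p under 0.05 (14.3% of genes) and DESeq2 and voom called none. The 2 were Pigr, 271.5 ± 60.1 at 9 months and 144.5 ± 62.7 at 3 months (log2 difference 0.89, SE 0.25, adjusted p = 0.0192), and Hp, 651.4 ± 31.8 and 529.2 ± 67.4 (0.30, SE 0.09, adjusted p = 0.0286). Neither overlapped between the times, where 1.59% of genes were higher without overlap. Hp lost its call without replicate 3 or 5 of 3 months or replicate 2 or 6 of 9 months, and Pigr without replicate 3 of 3 months or replicate 2 or 5 of 9 months.

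The change of the silica effect over time was tested in the model of all 12 groups. From 1 day to 3 months no gene was called in either genotype (0%), with an unadjusted p under 0.05 for 1 member in knockout and 2 in wildtype mice, against 6.44% and 4.79% of genes. From 3 to 9 months no gene was called in wildtype mice (0%), where 2 members had an unadjusted p under 0.05 (5.83% of genes). In knockout mice the effect was called smaller for Saa3, by -6.41 (SE 1.10, adjusted p = 0.00101), and Cp, by -0.63 (SE 0.16, adjusted p = 0.0341), where 0.724% of genes were called lower. Neither was called without the 3 air mice of 9 months, when the values were -2.20 (adjusted p = 0.400) and -0.42 (adjusted p = 0.265).

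Across the 70 libraries Saa3, Lcn2 and Pigr varied together and Ltf followed the others least. The correlations below are descriptions over libraries that share groups, exposure and depth. Pearson's r of log2 normalised CPM was 0.903 for Saa3 and Lcn2, 0.895 for Lcn2 and Pigr, 0.751 for Saa3 and Pigr, 0.810 for Cp and Pigr and 0.700 for Hp and Cp, and 0.235 to 0.537 for Ltf with the other 5. Among deviations from the group means, which drop the differences between groups, Lcn2 and Pigr had r = 0.777 and Saa3 and Lcn2 0.715. All 70 libraries entered these values. In air at 9 months, knockout replicate 4 and wildtype replicate 5 lay far above the rest of their groups in Saa3, Lcn2 and Pigr. Such mice can weigh heavily on these r, which were not computed without them. Saa3 and Pigr had 0.481, below the 0.543 of Cp and Pigr. By this measure Hp, not Ltf, followed the others least, with r of 0.0791 to 0.293 with the other 5, of which 0.206 with Cp. Ltf had r of 0.336 to 0.484 with Saa3, Lcn2, Cp and Pigr.

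Among 13252 genes, those most like Saa3 over the 70 libraries were the neutrophil attractant Cxcl1 (r = 0.929), D17H6S56E-5 (0.908) and Lcn2. Those most like Lcn2 were the chitinase-like Chil1 (0.976), the metalloreductase Steap4 (0.947) and Cxcl1 (0.941), and Chil1 also led among deviations from group means (0.928). Pigr was most like the macrophage scavenger receptor Marco (0.926), Chil1 (0.924) and complement factor B, Cfb (0.921). Cp was most like complement C3 (0.871), Cd44 (0.850) and Cfb (0.845). For Hp the leading values were lower, with Elof1 (0.766), Nek2 (0.754) and the zinc importer Slc39a4 (0.746). Ltf was most like Bpifb1 (0.651), the mucin Muc5b (0.645) and Ldha (0.637).

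Other genes were followed on lists chosen with earlier results of these data known. The shares of all tested genes called higher, 1.7% in knockout and 1.95% in wildtype mice at 1 day and 3.02% and 2.24% at 3 months, are the background of each count below. Of 24 other acute phase genes 10 were abundant enough to test at 1 day and 3 months; the liver-type members Saa1, Saa2, Crp, Apcs and the fibrinogen genes Fga, Fgb and Fgg were at or near 0 in most libraries. Of the 10, 5 rose in knockout and 4 in wildtype mice at 1 day, and 6 and 3 at 3 months, with none lower and the others not called. The median log2 fold change of the 10 was 0.60 in knockout and 0.44 in wildtype mice at 1 day, and 0.61 and 0.12 at 3 months. Cfb rose by 1.54 in knockout and 1.61 in wildtype mice at 1 day and 1.32 and 1.45 at 3 months. C3, the central complement component, rose by 1.02 and 0.90 at 1 day and 1.00 and 0.94 at 3 months. Itih4, an inter-alpha-trypsin inhibitor chain, rose by 1.07 and 0.81 at 1 day and 1.50 and 0.92 at 3 months.

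Of 18 other secreted defence genes 13 were tested at each time. Of these, 9 rose in knockout (1.7% of all genes) and 7 in wildtype mice (1.95%) at 1 day, and 8 (3.02%) and 7 (2.24%) at 3 months, and none fell; the list's median was 0.61 and 0.37 at 1 day and 0.74 and 0.37 at 3 months. Chil1 rose by 2.56 in knockout and 2.69 in wildtype mice at 1 day and by 2.74 and 2.65 at 3 months. Wfdc17, a small secreted protein of macrophages, rose by 2.95 and 2.63 at 1 day and by 3.55 and 2.23 at 3 months. The peptidoglycan-binding Pglyrp1 rose by 1.32 and 1.34 at 1 day, and the surfactant collectin Sftpd by 0.96 and 0.69. The secretory antiprotease Slpi rose in wildtype mice at 1 day, by 0.72, and in both genotypes at 3 months, by 0.93 and 0.68.

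Of the cytokines and factors known to induce such genes, 22 were listed. Of 18 tested, 3 rose in knockout (1.7% of all genes) and 5 in wildtype mice (1.95%) at 1 day, and 8 (3.02%) and 3 (2.24%) at 3 months, and none fell. Tnf rose by 1.33 in knockout and 1.29 in wildtype mice at 1 day, and the NF-kB targets Nfkbia and Nfkbiz by 0.75 and 0.62 in knockout and 0.50 and 0.59 in wildtype mice. Il1a rose by 1.06 in wildtype mice at 1 day, where its knockout value of 0.75 was not called, and Il1b by 1.16 in wildtype mice at 3 months, where its knockout value of 0.70 was not called. The interaction with genotype, by the main edgeR fit, called no gene at these times. Il17a had no count in any of the 70 libraries, Il22 was at 0 in 69 of them and Il6 reached at most 4.65 normalised CPM. Socs3 and Cebpb, at the core of the interleukin 6 response, rose in knockout mice at 3 months, by 0.64 and 0.63, with wildtype values of 0.12 for each that were not called. The same interaction did not call either gene.

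Of 18 receptors and binding partners of the members that were tested, 2 rose in knockout (1.7% of all genes) and 3 in wildtype mice (1.95%) at 1 day, and 4 (3.02%) and 2 (2.24%) at 3 months, with none lower. Steap4 rose by 2.25 and 1.90 at 1 day and by 1.96 and 1.90 at 3 months, and Tlr2, a receptor reported to bind serum amyloid A, by 0.74 and 1.04 at 1 day and 0.63 and 0.77 at 3 months. Jchain, which joins the polymeric antibodies that the Pigr protein carries, rose at 3 months in knockout mice by 1.8, and was at 0.93 in wildtype mice (adjusted p = 0.392). At 9 months with all mice in, no gene of these 4 lists was called in either genotype; the most abundant acute phase gene, C3, was at -0.12 in knockout (adjusted p = 0.927) and 0.38 in wildtype mice (adjusted p = 0.866).

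Without the 3 air mice of 9 months genes of all 4 lists were called, where 1.47% of genes were called higher in knockout and 1.22% in wildtype mice. Of 11 acute phase genes 4 rose in knockout and 3 in wildtype mice, of 13 secreted defence genes 5 and 6, of 18 inducers 3 and 2, and of 18 receptors and partners 3 and 2. One fell, Wfdc2 of the secreted defence genes in wildtype mice, by 0.40. C3 rose by 0.56 in knockout (adjusted p = 0.00113) and 0.64 in wildtype mice (adjusted p = 0.000289). Chil1 rose by 2.42 and 2.66, Wfdc17 by 2.42 and 3.18, Tnf by 1.52 and 2.01 and Steap4 by 1.34 and 1.54, each knockout before wildtype.

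Markers of other cells that could carry these transcripts were set beside the members, and their part was not tested. Neutrophils store lactoferrin, lipocalin 2 and haptoglobin, and their markers ranged widely in level. Camp was at most 0.953, Ngp 2.12, Prtn3 1.43, Mpo 0.580 and Ctsg 0.382 normalised CPM, and Elane had no count in any library. The collagenase Mmp8 reached 41.1 and was at 0 in 1 library, the gelatinase Mmp9 was at 6.46 to 37.3, and the calprotectin genes S100a8 and S100a9 were at 2.59 to 82.2 and 3.57 to 138.5 over the 70 libraries. The sum of the 14 neutrophil markers in the files, of 15 listed, at 1 day was 91.4 to 204.4 in silica-exposed and 86.7 to 134.8 in air-exposed knockout lungs, where 0 of 6 tested markers were called, and 105.4 to 157 in silica-exposed and 67.8 to 98.2 in air-exposed wildtype lungs, where 2 of 6 were, S100a9 by 0.92 and Cxcr2 by 0.68. At 3 months 1 of 7, Cxcr2 by 1.04, was called in knockout and 0 of 7 in wildtype mice. Alveolar macrophage markers summed to 4431 to 5327 in silica-exposed and 3520 to 4011 in air-exposed knockout lungs at 1 day, and 3746 to 4273 and 3088 to 3490 in wildtype lungs, with 5 of 12 called higher in each. Marco rose by 1.86 in knockout and 1.13 in wildtype mice. At 3 months the sums were 4582 to 6488 in silica-exposed and 3568 to 4285 in air-exposed knockout lungs, and 3704 to 5081 and 3396 to 3731 in wildtype lungs. Of the 12, 6 were then higher and 2 lower in knockout mice, and 5 higher and 3 lower in wildtype mice, among them Siglecf, the sialic acid-binding lectin, which fell by 1.10 in knockout and 1.48 in wildtype mice. Of 9 alveolar type 1 markers 5 fell in knockout mice at 3 months, with sums of 4063 to 5937 after silica against 6163 to 6894 in air, and 1 fell and 1 rose in wildtype mice, with sums of 5591 to 6163 against 6216 to 6751. Over all tested genes, 1.78% were called lower in knockout and 0.72% in wildtype mice at 3 months.

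The liver marker Alb ranged from 0.393 to 292.8 normalised CPM over the 70 libraries, and its highest values, 282.5 and 292.8, were in air-exposed knockout mice, replicate 4 of 1 day and replicate 4 of 3 months. That 1-day mouse had the highest Hp of its group, 491.8, and the 3-month mouse had 471. No liver marker was called at 1 day or 3 months, of 2 tested. The gland marker Lpo had no count in any library, while the 8 listed gland markers summed to 80.6 to 241.1 normalised CPM over the 70 libraries. Of these, 2 were tested at 1 day and 3 months and none was called.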

How the data were processed

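Lung RNA of 70 mice was sequenced from rRNA-depleted TruSeq Stranded Total RNA libraries, per the labels' protocols. The deposited values are whole-number counts per gene. The build mm10, the aligner HISAT2 2.1.0 and the counter HTSeq 0.11.2 are named in the submitters' processing notes, along with Trimmomatic 0.35, SAMtools 1.8, Cufflinks and bcl2fastq 2.19. Of 24439 rows, 19 that repeat another row's symbol and counts were dropped. Lars2 took 8.33% of all counts.

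Counts were tested with the quasi-likelihood test of edgeR 4.0.16 (legacy fit; TMM factors, low counts removed with filterByExpr) in R 4.3.3, in 1 model of 4 groups per time and 1 of all 12 groups for comparisons between times. All p-values were adjusted by Benjamini-Hochberg over all tested genes, with a threshold of 0.05. The legacy fit was taken after results of it and of edgeR's default fit had been seen; the default fit called the same number of members in every comparison. Standard errors come from the F statistic, and intervals are 95%. Alternatives used DESeq2 1.42.0, limma 3.58.1 (voom with quality weights), other filters and scalings, each library left out, and 3 air mice left out. Tests were tried on simulated counts first. Likeness is Pearson's r of log2 normalised CPM with a prior of 0.5, for the 3 leading genes per member with a mean of at least 1 CPM. Promoter motifs were counted in Python 3.11.15 (pandas 2.3.3, numpy 2.4.6) and figures were drawn with matplotlib 3.10.9.

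The members and gene lists were chosen with earlier results of these data known. The text names the 6 members, Slc26a4, the likeness genes, and from each list up to 4 called genes of largest change per comparison or, with none called, up to 2 of highest level. One gene that this rule names is not reported here. Where a gene is named for 1 genotype or time, its value in another may be given beside it. Bpifb1, Chil3, Alb and other markers named beside a result were chosen after their values were seen.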

Additional observations from a re-analysis of the deposited data

Results flagged for a closer look

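Each set of 5 or 6 mice was screened for a highest or lowest value with a wide gap to the rest, for each member and group. Of 72 sets 12 had such a value, where chance gives about 1 in 20 for independent sets; these sets share mice. In the air-exposed knockout mice of 9 months, replicate 4 was far above the others in Saa3 at 241.4, Lcn2 at 497.6, Cp at 912 and Pigr at 290.4 normalised CPM. In the air-exposed wildtype mice of 9 months, replicate 5 was far above the others in Saa3 at 14.5, Lcn2 at 477.1, Ltf at 33.1 and Pigr at 247.7. These 8 values come from 2 of the 3 mice that stand apart.

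Single mice gave the other values. Saa3 was at 44.1 in replicate 6 of the silica-exposed wildtype mice of 3 months, the highest of 6. Hp was at 491.8 in replicate 4 of the air-exposed knockout mice of 1 day and Cp at 411.5 in replicate 1 of the air-exposed knockout mice of 3 months, each the highest of 6. Lcn2 was at 42.7 in replicate 4 of the air-exposed wildtype mice of 3 months, the lowest of 6.

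The silica effect differed between 9 and 3 months in knockout mice by -6.41 for Saa3 and -0.63 for Cp on the log2 scale, past the threshold in the model of 12 groups with all mice in.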

How the results depend on the processing

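The silica effects of 1 day and 3 months kept the number of members called within 1.5 times under every setting tried, with 4 to 5 in knockout and 3 to 4 in wildtype mice at 3 months when single libraries were left out. No paired analysis was possible because each library came from a different mouse. Other counts of members moved. Silica against air at 9 months, with 0 called in each genotype, gave 2 in each by voom with quality weights, 3 in knockout mice in the model of all 70 libraries, 4 in knockout and 3 in wildtype mice without the 3 air mice, and 0 to 2 in each when single libraries were left out. Knockout against wildtype in air at 9 months gave 1 in place of 0 in the model of all 70 libraries. For 3 months against 1 day, 0 became 1 by voom and 2 with the compared groups only in wildtype air, 2 by voom, 2 with the compared groups only and 1 without the 3 mice in wildtype silica, and 1 by voom and 2 without the 3 mice in knockout silica. For 9 months against 3 months, 5 in wildtype air became 3 by voom, 2 without the 3 mice and 2 to 5 with single libraries left out, and 2 in knockout silica became 0 to 2. The change of the silica effect gave 1 in place of 0 with the compared groups only from 1 day to 3 months in wildtype mice, and from 3 to 9 months in knockout mice 0 by voom, 1 with the compared groups only, 0 without the 3 mice and 1 to 4 with single libraries left out, in place of 2. Signs turned mostly where values were near 0, on the log2 scale: in silica against air at 9 months in knockout mice, Saa3 was 1.88 by voom and 2.55 without the 3 mice, and Cp 0.037 without them; in knockout against wildtype, Pigr in air at 3 months was -0.0077 by DESeq2, Hp in air at 9 months -0.035 by voom and -0.051 without the 3 mice, and Hp in silica at 1 day 0.034 by voom, 0.0013 without Lars2 and 0.00334 with all 70 libraries. Lcn2 in the interaction at 3 months was 0.064 by voom, Saa3 between 3 months and 1 day -0.072 by DESeq2 and -0.056 by voom in wildtype air and -0.0039 by DESeq2 in knockout air, Cp in knockout silica 0.022 by voom, and the change of the silica effect of Ltf from 3 to 9 months in wildtype mice 0.0030 without the 3 mice. With single libraries left out, silica against air ran from -0.026 to 0.061 for Hp in wildtype mice at 3 months, and at 9 months in knockout mice from -1.93 to 0.30 for Saa3 and -0.25 to 0.0071 for Cp. Knockout against wildtype ran from -0.031 to 0.21 for Lcn2 in air at 1 day, -0.11 to 0.0045 for Cp and -0.028 to 0.14 for Pigr in air at 3 months, and -0.68 to 1.2 for Lcn2, -0.11 to 0.064 for Hp and -0.27 to 0.90 for Pigr in air at 9 months. In silica it ran from -0.085 to 0.086 for Hp at 1 day, -0.012 to 0.085 for Hp and -0.072 to 0.26 for Pigr at 3 months, and -0.35 to 0.28 for Saa3 and -0.020 to 0.096 for Cp at 9 months. The interaction ran from -0.019 to 0.15 for Hp and -0.047 to 0.13 for Pigr at 1 day, -0.090 to 0.11 for Lcn2 and -0.11 to 0.21 for Pigr at 3 months, and -0.90 to 0.97 for Lcn2, -1.77 to 0.14 for Ltf and -0.44 to 0.72 for Pigr at 9 months. Between 3 months and 1 day, Saa3 ran from -0.16 to 0.38 in wildtype and -0.13 to 0.26 in knockout air, Ltf from -0.25 to 0.65 in knockout air, and Lcn2 from -0.011 to 0.13 and Cp from -0.010 to 0.065 in wildtype silica. Between 9 and 3 months, Saa3 ran from -0.43 to 0.45 and Lcn2 from -0.18 to 0.026 in wildtype silica, and Ltf from -0.34 to 0.13 in knockout silica. The change of the silica effect ran from -0.047 to 0.15 in wildtype and -0.087 to 0.24 in knockout mice for Pigr from 1 day to 3 months, and from -1.70 to 0.0063 for Ltf in wildtype mice from 3 to 9 months. The cause was not tested for any of these. Counts of all genes called moved too: after silica at 1 day 242 in knockout and 298 in wildtype mice ran from 122 to 283 and 206 to 761 over the settings, at 3 months 607 and 374 ran from 306 to 625 and 190 to 575, and at 9 months 23 and 3 ran from 7 to 218 and 2 to 211. At this depth a few counts set the values of Saa3 in air and of Ltf.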
